A study of Mus musculus with 4 samples.

Results

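The 10 chemokine genes followed here were the rows of the deposited gene table named Ccl2, Ccl5, Ccl7, Ccl20, Cxcl1, Cxcl2, Cxcl5, Cxcl10, Cxcl12 and Cx3cl1. Each name matched 1 row, so that 10 of the 54532 genes of the table were taken, and 10 of 10 passed the filter on low counts that left 16368 genes for testing. Ccl2 and Cxcl1 were singled out beforehand because their counts had been seen to differ between libraries. The values of these genes are therefore given as a description without a p-value. The libraries were made from RNA of mouse astrocytes, the glial cells that support neurons and respond to injury, and sequenced as mRNA. Cells of one group received NC siRNA, named as the control in the deposited columns, and cells of the other received Ptbp1 siRNA, a small interfering RNA against the splicing repressor gene Ptbp1. Each group had 2 libraries. The labels give no strain, age, siRNA dose or time after treatment, and they do not say what NC stands for or whether the 2 libraries of a group are separate cultures. The p-values therefore rest on a spread between samples that may be no more than technical. Below, the groups are called control and knockdown, and a run of 4 values lists control 1, control 2, knockdown 1 and knockdown 2.

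Chemokines are small secreted proteins that steer the movement of cells through receptors on the cell surface, and they are grouped as CC, CXC or CX3C by the spacing of their first cysteines. Inflammatory chemokines are produced on demand when tumour necrosis factor, interleukin-1, viral RNA or interferons activate NF-kB, STAT and IRF transcription factors, and astrocytes are a known source of CCL2 and CXCL10 in the inflamed brain. Homeostatic chemokines are made in resting tissue. CXCL12 guides and retains progenitor cells, and CX3CL1, made mainly by neurons in the brain, is tethered to the membrane and binds CX3CR1 on microglia.

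The promoters of 4 of these genes are shown because Cxcl1 and Cxcl2 are neighbouring relatives that were both higher in the libraries numbered 2, Cxcl10 had the highest level, and Cxcl12 is a homeostatic gene for contrast. The RefSeq promoter table (GRCm38.p6) held 6 of the 10 genes. Each sequence is the 250 bases before the start annotated in RefSeq, written 5′ to 3′ on the strand of the gene. Capitals mark matches to the NF-kB consensus or to the core of the interferon-stimulated response element (ISRE). In that core a GAAA follows another after 2 bases of any kind. The RefSeq start can lie inside the deposited gene. For Cxcl2 the window ends at 90903898 and the deposited gene starts at 90903871, and for Cxcl1 these are 90891244 and 90891241. Distances below are from the RefSeq start and would differ from the deposited one.
Cxcl1, chr5:90890995-90891244, plus strand: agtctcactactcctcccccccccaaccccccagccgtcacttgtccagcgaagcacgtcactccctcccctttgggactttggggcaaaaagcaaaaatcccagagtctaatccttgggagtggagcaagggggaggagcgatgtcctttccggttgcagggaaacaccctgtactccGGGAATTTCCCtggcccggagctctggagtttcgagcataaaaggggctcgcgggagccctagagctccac
Cxcl2, chr5:90903649-90903898, plus strand: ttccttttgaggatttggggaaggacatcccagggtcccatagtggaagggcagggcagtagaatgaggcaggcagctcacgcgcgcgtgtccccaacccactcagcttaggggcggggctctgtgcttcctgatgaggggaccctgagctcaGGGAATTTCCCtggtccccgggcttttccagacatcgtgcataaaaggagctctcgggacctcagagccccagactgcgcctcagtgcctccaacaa
Cxcl10, chr5:92348890-92349139, minus strand: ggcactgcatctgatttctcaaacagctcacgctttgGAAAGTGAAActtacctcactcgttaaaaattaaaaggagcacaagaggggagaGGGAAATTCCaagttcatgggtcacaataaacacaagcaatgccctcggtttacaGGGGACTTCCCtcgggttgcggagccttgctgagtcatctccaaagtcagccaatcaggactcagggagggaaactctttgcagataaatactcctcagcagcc
Cxcl12, chr6:117168285-117168534, plus strand: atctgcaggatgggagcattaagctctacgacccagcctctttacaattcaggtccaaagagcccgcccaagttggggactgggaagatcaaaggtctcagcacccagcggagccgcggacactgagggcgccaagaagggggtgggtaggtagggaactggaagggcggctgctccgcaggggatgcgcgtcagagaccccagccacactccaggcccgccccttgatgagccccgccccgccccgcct
Both strands were searched. The promoters of Cxcl1 and Cxcl2 held the same 11 bases, GGGAATTTCCC, which match the NF-kB consensus on each strand with overlapping matches and begin 71 bases before the start in Cxcl1 and 97 bases before it in Cxcl2. The Cxcl10 promoter held GGGAAATTCC, beginning 159 bases before the start, and GGGGACTTCCC, which holds overlapping matches and begins 104 bases before it. It also held GAAAGTGAAA, a match to the ISRE core beginning 213 bases before the start. Neither motif was found in the window of Cxcl12. The NF-kB consensus was found in 7.25% and the ISRE core in 2.98% of 32851 promoter windows of this length, so a match is a description of the letters and not evidence of binding. Among the genes not printed, the Ccl20 window held 1 match to the NF-kB consensus, on the minus strand, and that of Cx3cl1 held none to either motif. A further search, for TATAAA, matched 12.4% of all windows and, among these 6 genes, that of Cx3cl1. The Cx3cl1 window ran from 94771930 to 94772179 and so reached into the deposited gene, which starts at 94772009.

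Gene counts totalled 14557844 to 16009248 per library. Ptbp1, the target, stood at 300.4 and 295 normalised counts (CPM, counts scaled by the TMM library size) in the controls, and at 203 and 196 CPM in the knockdown. The knockdown was thus partial, 33.1% lower on the mean (log2 fold change -0.58, SE 0.063, edgeR adjusted p = 0.00127). Astrocyte markers were present, with Gfap at 768 to 924 CPM and Aqp4 at 559 to 646 CPM over the 4 libraries, except Gjb6, which had 0 to 4 counts per library. Transcripts of other cells that can make chemokines were present too. Summed over 16 markers of microglia and macrophages, the level was 1129 and 1141 CPM in the control and 1136 and 1071 CPM in the knockdown. In whole cultures, fewer cells of a type and less RNA per cell cannot be told apart.

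The chemokine genes spanned a wide range of levels, led by Cxcl10. Levels between genes were compared in the deposited FPKM, which are scaled to gene length. Cxcl10, which draws CXCR3-bearing T cells and is induced by interferons, stood at 219.9 FPKM in control 1, 293 in control 2, 232 in knockdown 1 and 255 in knockdown 2. It made up 47.2% to 53.2% of the summed FPKM of the 10 genes in a library. Ccl7 and Ccl2, which draw monocytes, followed with 96.0 to 138 and 42.1 to 78.9 FPKM. Cx3cl1 was at 26.1 to 30.2 FPKM and Ccl5, which draws T cells and macrophages, at 14.9 to 15.99 FPKM. Cxcl1, which draws neutrophils, ranged from 6.46 to 16.6 FPKM and overlapped Ccl5. Cxcl12 lay at 4.32 to 5.01 FPKM. The lowest levels were those of Cxcl2, with 1.20 to 2.42 FPKM, Ccl20, with 1.35 to 2.06 FPKM, and Cxcl5, with 0.233 to 1.40 FPKM. Down to Cxcl2 the ranges of neighbours in this order did not overlap, except those of Ccl5 and Cxcl1, while Cxcl2 overlapped Ccl20 and Ccl20 overlapped Cxcl5. The deposited lengths ran from 801 bases for Ccl7 to 8176 bases for Cxcl12, and a transcript shorter than the length used would have a higher level per length than its FPKM shows.

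**Figure D1:**
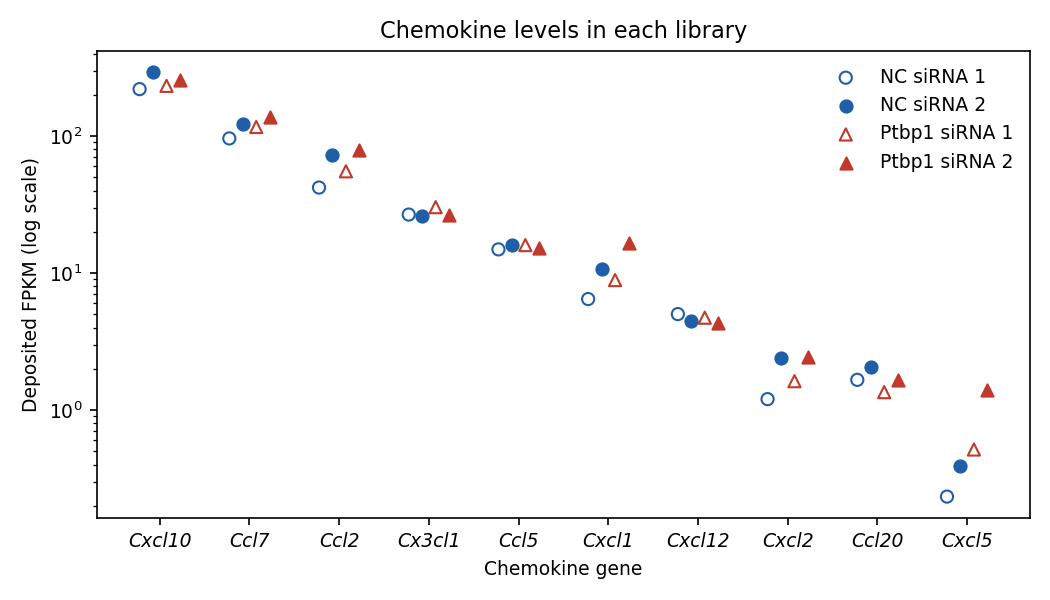
Deposited FPKM (log axis) of the 10 chemokine genes in each of the 4 libraries, ordered by mean level; circles are NC siRNA, triangles Ptbp1 siRNA, open symbols library 1 and filled symbols library 2. Cxcl10 lay at 219.9 to 293 FPKM and Cxcl5 at 0.233 to 1.40 FPKM. The filled symbols of Ccl2, Cxcl1 and Cxcl2 lay above the open ones in both groups, Ccl2 and Cxcl1 having been chosen for this difference.

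The neutrophil-attracting CXC genes, whose products signal through CXCR2, had larger values in library 2 than in library 1 of each group, for Cxcl5 within counting error in the control. Cxcl1 (ENSMUSG00000029380; GRCm38 chromosome 5, 90891241 to 90893115, plus strand, protein coding) had 195 counts in control 1, 302 in control 2, 243 in knockdown 1 and 467 in knockdown 2. These counts correspond to 12.2, 20.1, 16.7 and 31.3 CPM in the same order. The highest library was knockdown 2 and the lowest control 1, and the groups overlapped. Library 2 stood 1.66-fold above library 1 in the control and 1.87-fold above it in the knockdown, the differences for which Cxcl1 was chosen.

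Cxcl2 (ENSMUSG00000058427; chromosome 5, 90903871 to 90905938, plus strand), a close relative of Cxcl1 lying 10755 bases beyond it, had 40, 75, 49 and 75 counts over the libraries. Both libraries numbered 2 were high and the groups overlapped. Their excess over library 1 was 2.00-fold in the control (95% interval 1.35 to 3.02, exact binomial) and 1.49-fold in the knockdown (1.03 to 2.18). Intervals on counts cover counting error only, and PCR copies can make them too narrow. Cxcl5 (ENSMUSG00000029371; chromosome 5, 90759360 to 90761624, plus strand), known in mouse as the chemokine LIX, had 7, 11, 14 and 39 counts in the same order. Only knockdown 2 exceeded 14 counts, and the groups did not overlap. Its ratio of library 2 to library 1 was 1.68 in the control, with a 95% interval of 0.595 to 5.11 that includes 1, and 2.71 in the knockdown (1.44 to 5.41). Between Cxcl5 and Cxcl1 lie further CXC genes with few or no reads: Cxcl3 had 3, 8, 1 and 0 counts, Ppbp had 0, 0, 3 and 0, and Cxcl15 had 0 in all 4 libraries, which allows up to 0.187 to 0.207 CPM per library. Pf4, platelet factor 4, lies there too and had 66, 60, 39 and 41 counts. The choice of Cxcl3, Ppbp, Cxcl15 and Pf4 was made after seeing their values.

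The monocyte-attracting genes Ccl2 and Ccl7 gave the same order of libraries as Cxcl1 at higher levels, an order that Cxcl5 did not have. Ccl2 (ENSMUSG00000035385; chromosome 11, 82035571 to 82037453, plus strand), whose product is the main ligand of CCR2, had 771 counts in control 1, 1246 in control 2, 918 in knockdown 1 and 1345 in knockdown 2, or 48.1, 83.1, 63.2 and 90.3 CPM. Control 2 lay above knockdown 1, so the groups overlapped. Library 2 was 1.73-fold above library 1 in the control and 1.43-fold above it in the knockdown, the differences for which Ccl2 was chosen. Ccl7 (ENSMUSG00000035373; chromosome 11, 82045712 to 82047525, plus strand), another CCR2 ligand that starts 8258 bases past the end of Ccl2, had 1239, 1487, 1360 and 1658 counts, or 77.3, 99.2, 93.7 and 111 CPM. Its ratios of library 2 to library 1 were smaller, 1.28 in the control (95% interval 1.19 to 1.38) and 1.19 in the knockdown (1.10 to 1.28). Ccl12, a mouse CC gene farther along this cluster, ran the other way with 26, 10, 28 and 10 counts, and the eotaxin gene Ccl11 had 2, 6, 7 and 1 counts. Both were picked after seeing their values.

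The interferon-inducible members differed from each other. Cxcl10 (ENSMUSG00000034855; chromosome 5, 92346638 to 92348889, minus strand) had 7980, 9952, 7640 and 8613 counts, or 498, 664, 526 and 578 CPM. Control 2 was the highest library and control 1 the lowest, so that the knockdown libraries lay between them. The ratio of library 2 to library 1 was 1.33 in the control (95% interval 1.29 to 1.37) and 1.10 in the knockdown (1.06 to 1.13). Ccl5 (ENSMUSG00000035042; chromosome 11, 83525778 to 83530518, minus strand), known as RANTES, had 230, 230, 224 and 220 counts, or 14.3, 15.3, 15.4 and 14.8 CPM. Its ratios of 1.07 (95% interval 0.887 to 1.29) and 0.957 (0.791 to 1.16) had intervals that include 1. The CXCR3 ligand genes beside Cxcl10 had fewer reads, with 120, 146, 128 and 133 counts for Cxcl11 and 16, 6, 8 and 10 for Cxcl9, the latter chosen after its values were seen.

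Ccl20, which attracts CCR6-bearing lymphocytes (ENSMUSG00000026166; chromosome 1, 83116766 to 83119167, plus strand), was sparse, with 38, 44, 28 and 35 counts. On the CPM scale these are 2.37, 2.93, 1.93 and 2.35. Both knockdown libraries were below both controls, with control 1 and knockdown 2 nearly equal. The exact Poisson 95% interval of the control 1 count, 26.9 to 52.2, included the counts of the other 3 libraries.

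The homeostatic genes did not share the order of Ccl2 and Cxcl1. Cxcl12 (ENSMUSG00000061353; chromosome 6, 117168535 to 117181367, plus strand) had 660, 551, 563 and 529 counts, or 41.2, 36.7, 38.8 and 35.5 CPM. The library numbered 2 was the lower one in both groups, with ratios of 0.893 (95% interval 0.796 to 1.001) and 0.915 (0.811 to 1.03). Cx3cl1 (ENSMUSG00000031778; chromosome 8, 94772009 to 94782427, plus strand) had 1691, 1546, 1735 and 1570 counts, or 105, 103, 119.5 and 105 CPM. Knockdown 1 was its highest library. Its ratio of library 2 to library 1 was 0.977 (95% interval 0.912 to 1.05) in the control and 0.882 (0.823 to 0.944) in the knockdown.

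Of the 10 genes, 7 were higher in library 2 than in library 1 in both groups, where 27.0% of genes tested were. They were Ccl2 and Cxcl1, which were chosen for this difference, and Ccl7, Ccl20, Cxcl2, Cxcl5 and Cxcl10. Cxcl12 and Cx3cl1 were lower in library 2 in both groups, where 28.4% of genes tested were, and Ccl5 differed in sign. Both intervals of Cxcl12 and the control interval of Cx3cl1 included 1. The median log2 ratio of library 2 to library 1, on CPM plus 0.05, was 0.33 in the control and 0.19 in the knockdown over the 8 genes other than Ccl2 and Cxcl1, which were chosen for these ratios, against -0.0038 and -0.0023 over all genes tested. Of these 8 genes, 5 were higher in library 2 both times, against the 27.0% of genes tested. Replicates of a group have no order, and the labels do not say that a shared number marks a shared culture, day or batch.

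**Figure D2:**
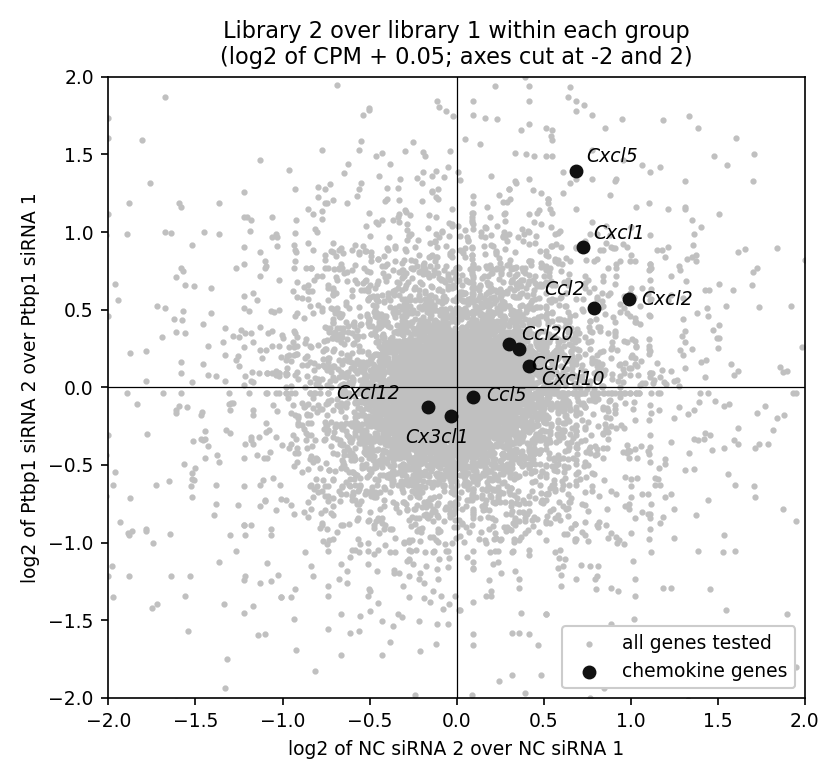
Log2 ratio of library 2 to library 1 (CPM plus 0.05) within the NC siRNA group (horizontal) and within the Ptbp1 siRNA group (vertical); grey points are the genes tested, of which 131 lie beyond the axes, and black points are the 10 chemokine genes. Cxcl5, Cxcl1, Cxcl2 and Ccl2 lie far into the upper right, where library 2 is higher in both groups, and Cxcl12 and Cx3cl1 lie at the lower left of the centre. Ccl2 and Cxcl1 were chosen for these differences, and the control ratio of Cxcl5 was within counting error.

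Between the siRNA groups, no chemokine gene passed the test. The count at an edgeR adjusted p under 0.05 was 0 of 10, where 0.0244% of genes tested passed (0.00611% higher and 0.0183% lower), and DESeq2 also called 0 of 10. Leaving aside Ccl2 and Cxcl1, which were chosen by their values, edgeR gave an unadjusted p under 0.05 for 1 of the other 8 genes, Cxcl5, where 3.98% of genes tested were at that level. DESeq2 gave 1 of 8, where 0.990% of genes were at that level. The authors' deposited table likewise held 0 of the 10 genes at an adjusted p under 0.05 and, of the 8, 1 at an unadjusted p under 0.05, where 0.560% of its genes with a p-value were. That gene was Cxcl5, with p = 0.0462 and a log2 fold change of 1.62 in the authors' deposited table. The median log2 fold change over the 8 genes was 0.07, with 5 positive and 3 negative values, against 0.0004 over all genes tested. Both libraries of one group lay outside the range of the other for 2 of the 10 genes, Cxcl5 and Ccl20, and for 31.5% of all genes tested.

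Of the 10 genes Cxcl5 had the largest log2 fold change, from 0.585 ± 0.210 CPM in the control to 1.79 ± 1.17 CPM in the knockdown (mean ± SD, n = 2). This is 1.61 on the log2 scale (SE 0.55, 95% interval 0.44 to 2.78), with an edgeR adjusted p of 1.00. The value rests on 7 to 39 counts per library and was 0.72 without knockdown 2 and 2.15 without knockdown 1. It was 0.54 with limma on log2(FPKM + 1), a scale that understates changes of low genes. Cxcl1 stood at 16.2 ± 5.64 and 24.0 ± 10.3 CPM, apart by 0.58 in log2, a value that was 0.06 without knockdown 2 and 0.98 without control 2. For Ccl2, at 65.6 ± 24.8 and 76.7 ± 19.1 CPM, the log2 fold change was 0.23, and it became -0.12 without control 1 and 0.67 without control 2. Cxcl2, at 3.75 ± 1.77 and 4.20 ± 1.17 CPM, had a log2 fold change of 0.17 (SE 0.325, 95% interval -0.51 to 0.86), with -0.25 without control 1 and 0.75 without control 2.

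Ccl7 stood at 88.2 ± 15.5 CPM in the control and 102 ± 12.4 CPM in the knockdown, a log2 fold change of 0.22 (SE 0.10, 95% interval -0.001 to 0.44, edgeR adjusted p = 1.00). Without control 2 it was called higher, at 0.41 with an edgeR adjusted p of 0.0012, and without control 1 it was 0.05. Under the other alternatives its adjusted p ran from 0.198 to 1.00. Cxcl10 stood at 581 ± 117 and 552 ± 36.6 CPM, or -0.07 in log2 (SE 0.097, 95% interval -0.28 to 0.13). Without control 1 it was called lower, at -0.27 with an edgeR adjusted p of 0.0161, and without control 2 it was 0.15. Under the other alternatives its adjusted p ran from 0.709 to 1.00. In each fit without a library, the remaining library of that group is assumed to vary like the others. Ccl5, at 14.8 ± 0.702 and 15.1 ± 0.472 CPM, had a log2 fold change of 0.02 with an interval of -0.27 to 0.32, a fold between 0.831 and 1.24. For Cxcl12, at 39.0 ± 3.13 and 37.1 ± 2.32 CPM, it was -0.07 with a fold between 0.828 and 1.10. For Cx3cl1, at 104 ± 1.68 and 112 ± 10.01 CPM, it was 0.11 with a fold between 0.965 and 1.20, and for Ccl20, at 2.65 ± 0.399 and 2.14 ± 0.297 CPM, it was -0.31 with a fold between 0.496 and 1.32. These intervals bound the difference and do not show that the groups were alike.

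**Figure D3:**
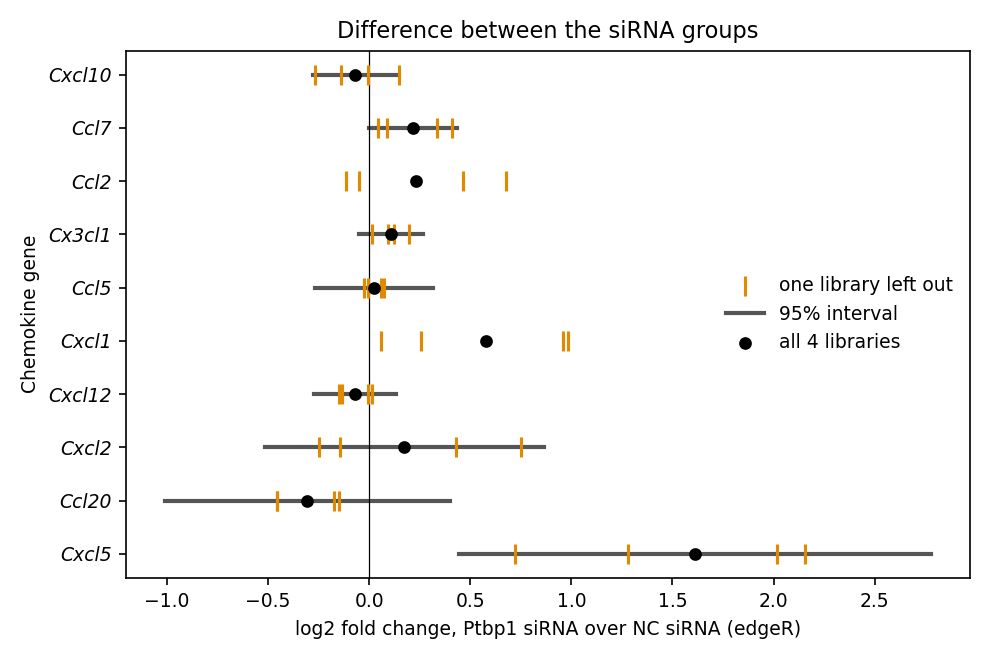
Log2 fold change of Ptbp1 siRNA over NC siRNA for the 10 chemokine genes; black points are the edgeR values from all 4 libraries, grey bars their 95% intervals (none for Ccl2 and Cxcl1, which were chosen by their values), and orange ticks the values with 1 library left out. The ticks of Ccl2 run from -0.12 to 0.67 and those of Cxcl1 from 0.06 to 0.98.

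Receptors for these ligands were mostly sparse or not detected at this depth. Of 18 signalling chemokine receptors 6 passed the filter, and none was called (edgeR; 0 had an unadjusted p under 0.05; median log2 fold change -0.09). Cxcr4, the CXCL12 receptor, was the highest, at 40.0 ± 3.03 CPM in the control and 37.1 ± 3.62 CPM in the knockdown. Ackr3, an atypical receptor that scavenges CXCL12, stood at 105 ± 4.14 and 108 ± 9.30 CPM. Ccr1, a receptor shared by CCL5 and CCL7, had 130, 151, 108 and 150 counts. Cx3cr1, the receptor of CX3CL1 on microglia, had 142, 91, 83 and 77 counts, and its log2 fold change was -0.46 (SE 0.23). Ccr10, which binds none of the products of the 10 genes, had 35, 31, 37 and 29. The receptor of CXCL1, CXCL2 and CXCL5 was not detected, with 0 counts of Cxcr2 in all 4 libraries (up to 0.187 to 0.207 CPM allowed), and those of CCL2, CCL20 and CXCL10 had few reads: 0, 0, 2 and 0 counts of Ccr2, 0, 1, 0 and 0 of Ccr6 and 1, 0, 0 and 1 of Cxcr3. The choice of Cxcr2, Ccr2, Ccr6 and Cxcr3 was made after seeing their values. Of 5 atypical receptors 3 passed the filter and none was called (0 with an unadjusted p under 0.05), with log2 fold changes of 0.07 (SE 0.18) for Ccrl2 and 0.91 (SE 0.56) for Ackr4, the latter on 6 to 16 counts.

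Among 28 other chemokine ligands, 13 passed the filter and 8 had no read in any library. None of the 13 was called by edgeR, 0 had an unadjusted p under 0.05, and the median log2 fold change was -0.13 with 5 positive and 8 negative values. The highest was Cxcl14, a CXC chemokine of epithelia and brain, at 42.6 ± 1.19 CPM in the control and 38.8 ± 0.332 CPM in the knockdown. Ccl25, which guides thymocytes and gut T cells, stood at 27.4 ± 1.02 and 24.99 ± 0.510 CPM. Cxcl16, a membrane-bound chemokine like CX3CL1, stood at 20.1, 28.2, 25.6 and 28.5 CPM, so that library 2 was the higher in both groups. Ccl27a, at 4.74, 7.74, 4.68 and 5.37 CPM, has 3 entries in the table and its counts are uncertain. Of the 13 genes, 6 were higher in library 2 in both groups and 2 were lower, where 27.0% and 28.4% of all genes tested were.

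No gene of the upstream signals was called between the groups, and some lists had a shared order of libraries. None of 17 tested cytokine inducers and their receptors was called. Their log2 fold changes ran from -0.57 to 0.30, with a median of 0.02. An unadjusted edgeR p under 0.05 was held by 2 of them, where 3.98% of all genes tested held one. These were Il1rap at 0.21 (SE 0.080) and Il17ra at 0.26 (SE 0.10), named after seeing their values. The tumour necrosis factor receptor gene Tnfrsf1a had a log2 fold change of -0.07 (SE 0.066), the viral RNA sensor Tlr3 one of -0.03 (SE 0.077) and the interferon receptor gene Ifnar1 one of -0.07 (SE 0.070). Here 5 genes were higher and 3 lower in library 2 in both groups, where 27.0% and 28.4% of all genes tested were. Tnf itself had 53, 46, 61 and 31 counts, Il1b had 22, 35, 38 and 29, and Il6 had 97, 78, 98 and 78. Tnf and Il6 were lower in library 2 in both groups, and Il1b was higher in library 2 only among the controls. In the control the log2 ratio of library 2 to library 1 was only -0.11 for Tnf and -0.22 for Il6. Whether these differences exceed counting error was not tested. These cytokines were picked after seeing their values.

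Of 14 NF-kB factors and feedback targets none was called, and 1 had an unadjusted edgeR p under 0.05, where 3.98% of all genes tested did. Their median log2 fold change was 0.07, with 11 positive and 3 negative values. In library 2, 11 were higher in both groups and 0 lower in both, where 27.0% and 28.4% of all genes tested were. The shifts were small, with a median log2 ratio of library 2 to library 1 of 0.089 in the control and 0.12 in the knockdown. Whether they exceed counting error was not tested. The adhesion molecule gene Vcam1 stood at 511, 619, 553 and 623 CPM. Tnfaip3, a feedback inhibitor of NF-kB, stood at 171, 181, 193 and 201 CPM, and the subunit gene Rela at 178, 176, 164 and 175 CPM. Nfkbia, the gene of the NF-kB inhibitor IkB-alpha, chosen after its values were seen, stood at 149, 189, 168 and 187 CPM, an order in which both libraries numbered 2 were high as for Ccl2. Of 16 interferon-stimulated genes none was called, and 5 had an unadjusted edgeR p under 0.05, where 3.98% of all genes tested did. Their log2 fold changes ran from -0.30 to 0.06 with a median of -0.09, 14 negative and 2 positive. In library 2, 12 were higher in both groups and 0 lower in both, where 27.0% and 28.4% of all genes tested were. The median log2 ratio of library 2 to library 1 was 0.20 in the control and only 0.048 in the knockdown. Counting error was not tested here either. Ifit3 stood at 1169, 1389, 1190.2 and 1274 CPM, Ifit1 at 852, 991, 840.4 and 908 CPM and Oasl2 at 655, 721, 627 and 653 CPM, with control 2 the highest each time as for Cxcl10.

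Markers of cell types differed between libraries in either direction. Over all genes tested, 27.0% were higher and 28.4% lower in library 2 in both groups, and 3.98% had an unadjusted edgeR p under 0.05. Of 9 tested astrocyte markers 8 were lower in library 2 in both groups and 0 higher, and the summed level of the 10 listed was 2337 and 2203 CPM in control 1 and 2 and 2298 and 2026 CPM in knockdown 1 and 2. Of 10 fibroblast and mural markers 8 were lower and 1 higher in library 2 in both groups, with sums of 6386, 6100.1, 6482 and 5511 CPM in the same order. Acta2 stood at 3525, 3525, 3926 and 3376 CPM and Col3a1 at 1080.2, 1001, 1031 and 865 CPM. Of 15 tested microglia and macrophage markers 2 were higher and 5 lower in library 2 in both groups, with Lyz2 at 649 to 672 CPM, Ctss at 81.8 to 92.2 CPM and the homeostatic microglia gene P2ry12, chosen after its values were seen, at 4 to 13 counts per library. The sum over choroid plexus markers set control 2 apart, at 450.1 CPM there against 93.3, 77.4 and 95.02 CPM in the others. Of the 5 tested choroid plexus markers 3 were higher in library 2 in both groups. Ttr alone stood at 52.3, 348, 38.8 and 52.3 CPM. The sums over endothelial markers were 99.5, 86.0, 99.2 and 82.5 CPM. They were 373.7, 393, 353 and 367.5 CPM over ependymal markers, of which 4 of 6 were higher in library 2 in both groups. Oligodendrocyte lineage markers summed to 357.5, 353, 355 and 323 CPM and neuronal markers to 269, 258, 277 and 263 CPM. Map2, at 146 to 166 CPM, and Stmn2, at 81.5 to 85.0 CPM, made up most of the neuronal sum. The filter removed 3 neuronal, 2 endothelial and 1 oligodendrocyte lineage markers. Of these, picked after seeing their values, Rbfox3 had 0 to 5 counts per library and Cldn5 had 0. Pdgfra and Cspg4 enter both the oligodendrocyte lineage and the fibroblast and mural sums. None of the tested markers was called by edgeR; an unadjusted p under 0.05 was held by 1 astrocyte, 1 microglia and macrophage, 2 fibroblast and mural, 3 choroid plexus, 1 ependymal and 0 endothelial, oligodendrocyte lineage or neuronal markers. The median log2 fold change of the choroid plexus markers was -1.90, but the group difference in their sum came from control 2. Their sum in control 1, 93.3 CPM, lay between those of the knockdown libraries, 77.4 and 95.02 CPM. The part of these cell types in the chemokine values was not tested.

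**Figure D4:**
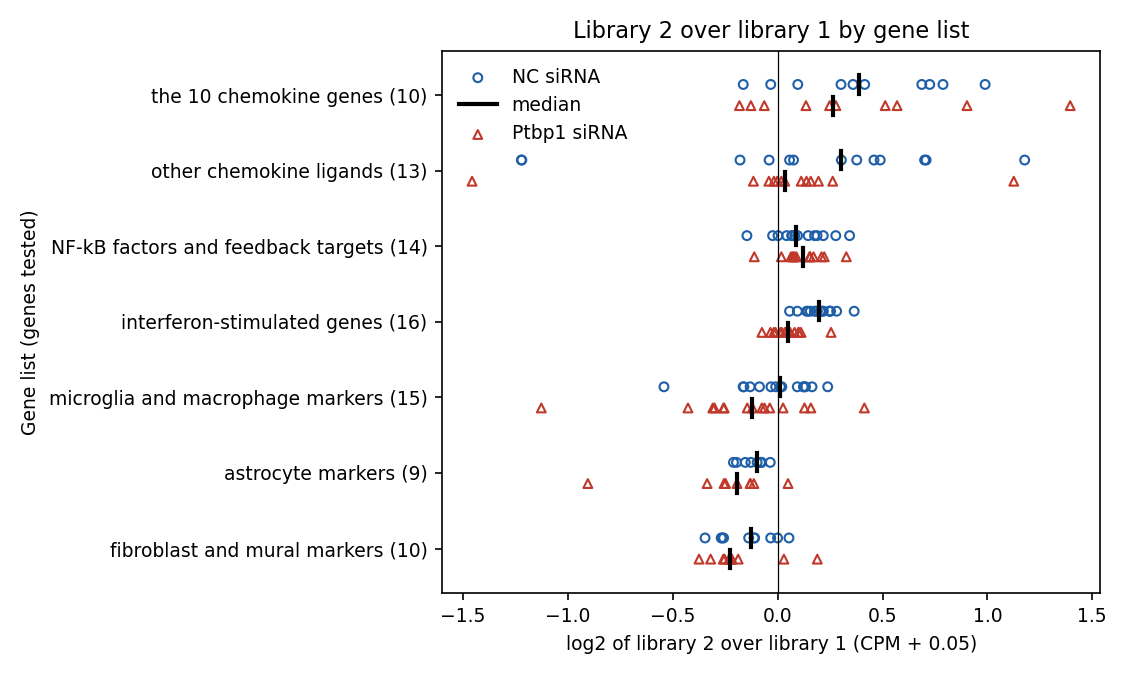
Log2 ratio of library 2 to library 1 (CPM plus 0.05) for each tested gene of 7 lists, with the number tested in brackets; blue circles are the NC siRNA group, red triangles the Ptbp1 siRNA group and black bars list medians. For the 10 chemokine genes the medians were 0.39 for NC siRNA and 0.26 for Ptbp1 siRNA, with Ccl2 and Cxcl1, chosen for these differences, included. Over the other 8 genes they were 0.33 and 0.19, and for the astrocyte markers -0.10 and -0.19.

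The profiles most like those of Ccl2 and Cxcl1 were sought among 11096 protein-coding genes, predicted genes left out, with a mean of at least 5 CPM, as the Euclidean distance between centred log2(CPM + 1) values over the 4 libraries. The genes nearest to Ccl2 were Tmem258 at a distance of 0.14, Frzb at 0.18 and Lbhd1 at 0.21. Those nearest to Cxcl1 were Mfap1b at 0.35, Hist1h2ac at 0.36 and Ccl2 at 0.38. Ccl7 ranked 23rd for Ccl2 and 25th for Cxcl1. With 4 libraries such likeness is a description only. Ccl2 and Cxcl1 were both chosen for their differences between these libraries, so their likeness to each other is not independent of that choice.

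Few stretches of sequence were shared with the transcripts of other genes, searched on the transcript strand only. Matches on the opposite strand or in the rest of the genome were not searched. Of the 50-base stretches in their GENCODE M21 transcripts, 5.84% for Cxcl2, shared with Cxcl3, and 0.693% for Cxcl5 occur in transcripts of other genes, and for the other 8 genes the share was 0%. The antisense gene Art3 overlaps Cxcl10 and had 21 to 36 counts, and Gm17268 overlaps Ccl2 on the opposite strand and had 0 counts in every library.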

How the data were processed

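Mouse astrocyte RNA from 2 NC siRNA and 2 Ptbp1 siRNA libraries was compared. Per the labels' protocols, total RNA came from a Qiagen RNeasy column and sequencing used a SMARTer mRNA library kit. Per the submitters' processing notes the builds are GRCm38 and mm10. The aligner, the counter and whether it used strand were not given in the sources used here. Raw counts per gene were deposited by the authors. The FPKM that the authors deposited are scaled to gene length and to a library size that, recomputed here, equals the geometric mean total multiplied by each library's median-ratio factor. Group means of scaled counts, a log2 fold change and p-values were also deposited by the authors. The deposited group means are a signal averaged over the libraries of a group and were not used.

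The group comparison used the quasi-likelihood test of edgeR 4.0.16 under R 4.3.3 (TMM scaling, filterByExpr defaults, Benjamini-Hochberg over 16368 genes, two-sided, 2 residual degrees of freedom, prior 14.03). A call is an adjusted p under 0.05. Exact Poisson and binomial 95% intervals came from scipy 1.17.1, and a count of 0 was given a limit of 3 counts. Alternatives were RLE or no scaling, DESeq2 1.42.0, limma 3.58.1 on log2(FPKM + 1) or log2(FPKM + 0.1), 2 other filters, a replicate block and leaving out each library. The edgeR step was tested on simulated counts. The members, lists and tests were chosen with earlier results of these data known. The rule for named genes took the 10 members, the 5 tested genes with the highest CPM among other ligands and among receptors, the 3 highest of other lists, the 2 highest of marker lists, and the 3 nearest profiles to Ccl2 and to Cxcl1; any other gene is marked in the text as picked later. Some marker genes that the rule takes are given only within sums, and 1 receptor gene that it takes is not reported here.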

Additional observations from a re-analysis of the deposited data

How the results depend on the processing

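The count of chemokine genes called was 0 under RLE scaling, no scaling factor, a mean of at least 1 CPM, DESeq2 and both limma fits. It was 1 with no filter on low counts and 1 with the replicate block, Cxcl1 each time, a gene chosen for its variation and not read as a test. Without 1 library it ran from 0 to 3, and leaving aside Ccl2 and Cxcl1 from 0 to 1. Over all genes, 4 calls became 50 with no filter, 36 with the replicate block, 0 with limma at either pseudocount and 34 to 75 without 1 library. The genes tested numbered 16368 in the reported fit, the replicate block and limma, 29505 with no filter and 17143 to 17204 without 1 library. The prior degrees of freedom were 14.03 in the reported fit, 61.0 with the replicate block and infinite with no filter or a library left out. The cause of the higher counts was not tested. Same-numbered libraries had deviations correlated at 0.113 over 15139 genes; with 2 numbers this does not show pairing. Outside the leave-one-out fits, the log2 fold changes kept their direction in 80 of 80 values. Without 1 library, 8 values changed sign: 2 of Ccl2, given above as a description, which ran from -0.12 to 0.67, and 6 of others, where Ccl5 ran from -0.025 to 0.073, Cxcl2 from -0.25 to 0.75, Cxcl10 from -0.27 to 0.15 and Cxcl12 from -0.15 to 0.013. Depth limits Cxcl5, Ccl20 and Cxcl2 most, at 7 to 75 counts per library, and with 2 libraries a group no search for outlying libraries was made.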
